A study of Homo sapiens with 97 samples.

Results

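The mitochondrial import machinery comprises the receptors, channels, chaperones and motor that carry proteins made in the cytosol into mitochondria, and its transcripts were followed by proximity labelling of RNA in HEK293T cells, a human embryonic kidney line. The members were taken by gene symbol: 31 genes, held by 32 of the 60675 rows of each count table, because TIMM10B had a second row of at most 0.15 CPM (counts scaled to the library total). TOMM6, a small subunit of the outer membrane channel, had 0 counts in every table; its gene overlaps AL365205.1 on the same strand, and whether the counting left out its reads was not tested, so the 0 is no measure of expression. The other 30 members passed the filter on low counts in every table and were tested. The counts of several members are uncertain. TIMM23 has the near-identical copy TIMM23B and TOMM20 has processed pseudogenes. In GENCODE 29 a gene overlaps 9 of the 31 members on the same strand, among them TIMM13 (LMNB2), SAMM50 (PARVB and PNPLA3), TOMM5, TIMM10B and PAM16 (CORO7 and CORO7-PAM16), and one overlaps 17 on the other strand. How shared reads were counted is not given in the sources used here.

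In APEX-seq the peroxidase APEX2 is fused to a protein that places it in 1 compartment, and biotin-phenol with hydrogen peroxide tags RNA close to it, which is then pulled down and sequenced. Cells stably expressed 1 of 9 fusions: NLS (nucleus), NIK (nucleolus), LMA (nuclear lamina), NucPore (nuclear pore), NES (cytosol), ERM (the cytosolic face of the endoplasmic reticulum, ER), KDEL (ER lumen), OMM (the outer membrane of mitochondria) or MITO (mitochondrial matrix). Labelled cells had biotin-phenol for 30 min and peroxide for 1 min, and unlabelled cells had no peroxide; all untreated groups held poly(A) RNA, and MITO also total RNA. OMM and NES cells were also treated with cycloheximide, which stops translation elongation and leaves ribosomes on the mRNA, with puromycin, which releases nascent chains, with CCCP, which collapses the mitochondrial membrane potential, or with nocodazole, which depolymerises microtubules, for 3, 6, 9 or 30 min or 2 h. Nuclear and cytosol fractions were sequenced without labelling. Every group had 2 libraries that the labels call biological replicates, all from 1 cell line. The p-values measure only the spread between such libraries, pooled over all groups of a count table. RNA below 100 nt was not recovered efficiently.

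Most mitochondrial proteins are made on cytosolic ribosomes and cross the TOM complex of the outer membrane. Matrix proteins usually carry an N-terminal presequence rich in basic residues, which is pulled through the TIM23 complex by an ATP-driven motor, while carriers and other hydrophobic proteins are escorted by small TIM chaperones. Ribosomes that translate some of these proteins sit at the mitochondrial surface, and arresting elongation is known to hold such mRNAs there.

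The first 20 codons of the coding sequence are shown for 8 of the members that the results name, since presequences are encoded there. They were read from GENCODE 29 transcripts (GRCh38) 5′ to 3′, with in-frame arginine and lysine codons in capitals. TIMM44, TIMM21, GRPEL1 and GRPEL2 have a presequence, and TOMM20, TIMM17A, TIMM17B and TIMM10 do not. The TIMM44 stretch spans chr19:7941183-7943651 (minus strand, spliced), TIMM21 chr18:74148809-74148868 (plus), GRPEL1 chr4:7067973-7068032 (minus), GRPEL2 chr5:149345540-149345599 (plus), TOMM20 chr1:235128656-235128715 (minus), TIMM17A chr1:201955527-201957314 (plus, spliced), TIMM17B chrX:48896825-48897749 (minus, spliced) and TIMM10 chr11:57530130-57530189 (minus).
TIMM44: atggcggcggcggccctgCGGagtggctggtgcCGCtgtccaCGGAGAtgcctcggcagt
TIMM21: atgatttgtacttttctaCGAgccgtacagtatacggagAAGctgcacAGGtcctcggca
GRPEL1: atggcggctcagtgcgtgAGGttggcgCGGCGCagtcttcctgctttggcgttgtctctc
GRPEL2: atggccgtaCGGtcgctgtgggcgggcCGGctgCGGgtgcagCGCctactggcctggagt
TOMM20: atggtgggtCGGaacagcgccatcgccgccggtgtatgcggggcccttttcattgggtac
TIMM17A: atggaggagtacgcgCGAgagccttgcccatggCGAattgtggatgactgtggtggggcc
TIMM17B: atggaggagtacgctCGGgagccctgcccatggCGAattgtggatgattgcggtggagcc
TIMM10: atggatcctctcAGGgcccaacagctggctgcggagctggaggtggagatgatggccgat
In these windows TIMM44 and GRPEL2 each hold 4 basic and 0 acidic codons, GRPEL1 holds 3 and 0, and TIMM21 holds 3 and 1. TIMM17A and TIMM17B each hold 2 basic and 5 acidic codons, TIMM10 holds 1 and 5, and TOMM20 holds 1 and 0. Members not shown differ from this contrast. Without a presequence, basic codons ranged from 0 (TOMM40) to 6 (TIMM8B, with 1 acidic), and TOMM40L holds 4 and 0. All 6 of TIMM8B lie ahead of a second in-frame atg in the 98-codon transcript read here, so they depend on the start that is used. TOMM40L thus holds as many basic codons as TIMM44 and GRPEL2, so the count of basic codons does not set presequence members apart. TIMM50, which has a presequence, holds 2 and 1 in the 456-codon transcript read here. Whether its presequence begins at the start of that transcript's coding sequence was not tested. The paralogs TIMM17A and TIMM17B differ at 6 of the 60 bases.

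The libraries held 9330259 to 76714068 counts in the table of constructs, 22749527 to 55763066 in that of drugs, 15473060 to 33966883 in that of nocodazole, 2835969 to 76714068 in that of MITO and 34961110 to 44973261 in that of fractions. Some libraries were of low complexity, meaning that over 2% of well-expressed genes, those averaging 5 CPM or more, lacked a count: 7 of 36 of constructs, 3 of 24 with drugs, 6 of 28 with nocodazole, 1 of 9 of MITO and 0 of 4 fractions. Both unlabelled OMM libraries in cycloheximide (3.08% and 7.75%) and all 4 unlabelled OMM libraries in nocodazole (2.98% to 16.26%) were among them. Landmark RNAs followed the labels at NLS, ERM, OMM and MITO, and none is given for the other constructs. MALAT1 rose by 3.65 ± 0.52 (log2 fold change ± standard error) at NLS and SCD by 2.76 ± 0.14 at ERM. ALDH18A1 rose by 3.32 ± 0.19 at OMM and MT-CO1 by 4.43 ± 0.27 at MITO. Of the line's markers, VIM stood at 209 to 990 CPM, KRT18 at 10.2 to 71.2 and KRT8 at 0 to 43.5 over the construct libraries. PTPRC, ALB and CDH5, markers of other cells, stayed at or below 5.73 CPM, and COL1A1 ranged from 0.0534 to 30.7.

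At the ER membrane many import transcripts were depleted and TOMM20 was enriched. Of 30 members 13 fell in labelled against unlabelled ERM libraries and 1 rose, and 16 were not called, at an adjusted p under 0.05 (edgeR's quasi-likelihood test, adjusted over all genes tested), where 7.6% of all genes tested were called lower and 5.26% higher. The members' median log2 fold change was -0.84 and that of all genes 0.00. TOMM20, which encodes the receptor that first binds presequences, is the member that rose (1.40 ± 0.15). Its 2 ERM labelled libraries, at 1647 and 1548 CPM, lay above all 34 other libraries of the table, which ranged from 499 to 1091 CPM. No other member lay above all others in both ERM labelled libraries, where 2.85% of all genes tested did so. Thus 1 of 30 members is close to that share, and no larger than the 5.26% called higher.

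The fall at the ERM covered several roles. TIMM17B, a subunit of the TIM23 channel, stood at 8.22 and 21.8 CPM in labelled libraries and at 108 and 120 in unlabelled ones (log2 fold change -2.93 ± 0.40, adjusted p = 1.19e-06). Its paralog TIMM17A stood at 54.3 and 72.0 CPM against 165 and 157 (-1.35 ± 0.22, adjusted p = 2.22e-05). TIMM8B, a small chaperone of the intermembrane space, stood at 19.9 and 12.2 CPM against 57.1 and 75.8 (-2.05 ± 0.34, adjusted p = 2.76e-05). In each of these 3 genes both labelled libraries lay below both unlabelled ones. These genes, like those given for later comparisons, were picked by their adjusted p, so the separation describes the picked genes only. How many of all genes tested are separated this way was not counted.

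By role, 4 of 5 presequence translocase members fell at the ERM (TIMM17A, TIMM17B, TIMM23 and TIMM50, with a median of -1.10 for the role), as did 3 of 6 small TIM chaperones (TIMM8B, TIMM10 and TIMM13, median -1.38). TOMM5, TOMM7 and TOMM22 of the TOM complex fell while TOMM20 rose. Of all genes tested 7.6% were called lower and 5.26% higher there. TIMM44, the anchor of the import motor, MTX2 of the sorting and assembly machinery and TIMMDC1, an assembly factor of respiratory complex I, fell too. The largest fitted changes were those of TIMM10 (1.88 and 4.14 CPM against 32.1 and 31.5) and TOMM7 (0.298 and 21.6 CPM against 108 and 117). The TOMM7 value of 0.298 CPM is that of labelled replicate 1, a low-complexity library in which 5.02% of well-expressed genes had no count; without the low-complexity libraries 12 members were called, and in a fit of the 4 ERM libraries alone 7. In both ERM labelled libraries MTX1, MTX2, TIMM13, TIMM44, TIMM50 and TOMM5 lay below all 34 others, which 3.65% of all genes tested did.

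Another 22 genes of the import pathway were also tested at the ERM. Of these 8 fell and 2 rose, where 7.6% and 5.26% of all genes tested did. Among those that fell were HSPE1 (-2.22 ± 0.23), HSPD1 (-1.12 ± 0.15), both matrix chaperonin subunits, and PMPCB (-1.69 ± 0.23), a subunit of the peptidase that removes presequences.

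**Figure D1:**
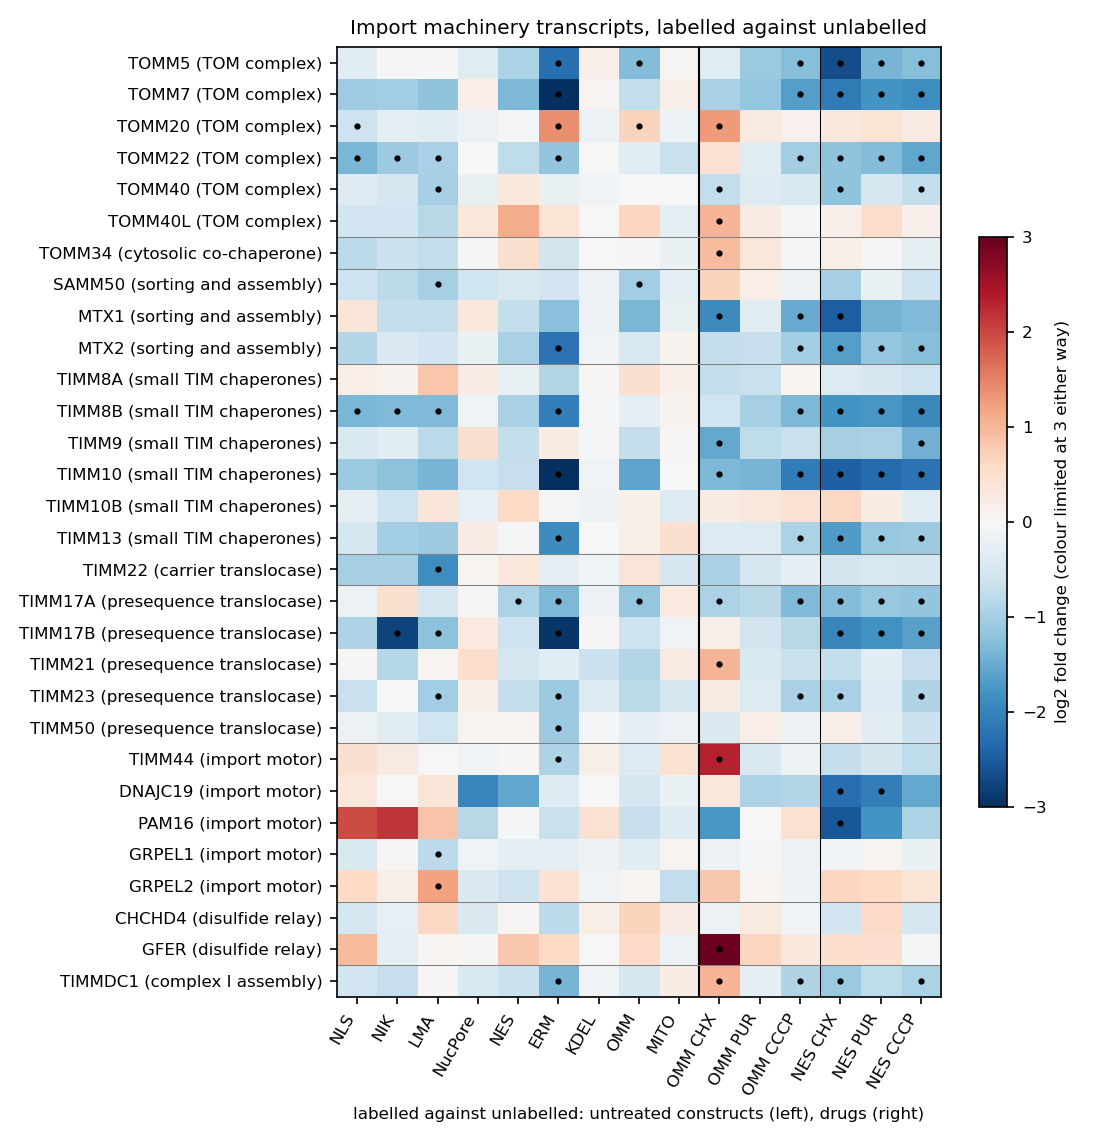
The heat map gives the log2 fold change of labelled against unlabelled libraries for the 30 tested members (rows, by role) at the 9 constructs and in cycloheximide (CHX), puromycin (PUR) and CCCP (columns), with dots at an adjusted p under 0.05. ERM and the NES columns with drugs are mostly blue (lower), TOMM20 is red at ERM, OMM and OMM with cycloheximide, and the KDEL column is near 0.

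At the untreated OMM, 1 member rose and 3 fell, where 3.0% of all genes tested were called higher and 1.98% lower, so the 1 higher member is close to the share of all genes. TOMM20 stood at 1091 and 1080 CPM in labelled and at 713 and 660 in unlabelled OMM libraries, with no overlap (0.66 ± 0.15, adjusted p = 0.00508). TIMM17A fell from 140 and 186 CPM unlabelled to 72.2 and 74.5 labelled (-1.15 ± 0.22, adjusted p = 6.12e-04). SAMM50, the core of the machinery that inserts barrel proteins into the outer membrane, stood at 46.0 and 55.9 against 85.1 and 125 CPM (-1.05 ± 0.25), and TOMM5 at 24.5 and 22.1 against 49.8 and 64.8 CPM (-1.30 ± 0.38). The call of TOMM20 was lost without either OMM labelled library or without unlabelled replicate 2, which is of low complexity, and no member was called in a fit of the 4 OMM libraries alone.

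In the cytosol only TIMM17A of the members was called, lower, where 2.5% of all genes tested were called lower, again close to that share. It stood at 80.2 and 70.4 CPM in labelled NES libraries and at 160 and 129 in unlabelled ones (-0.94 ± 0.22, adjusted p = 0.00724). That call was lost without either NES labelled library or unlabelled replicate 1. TOMM20 had 630 and 670 CPM labelled and 752 and 583 unlabelled, so its groups overlapped (-0.04 ± 0.15).

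Against NES as the reference, 1 member was higher and 2 were lower at the ERM, where 2.15% and 1.69% of all genes tested were called. TOMM20 was higher there. TIMM17B (-2.30 ± 0.53, adjusted p = 0.00703) and TIMM50 (-1.16 ± 0.32, adjusted p = 0.0324), a receptor of the TIM23 complex, were lower; both of these calls were lost without ERM labelled replicate 1 or NES unlabelled replicate 1. At the OMM against NES no member was called with edgeR (1.72% of all genes tested were), 1 had an unadjusted p under 0.05 and DESeq2 called 1. The TOMM20 difference was 0.70 (95% interval 0.28 to 1.12, adjusted p = 0.108).

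Set against each other, OMM was higher than ERM for 3 members and lower for none, where 1.6% of all genes tested were called higher. They were TIMM17B (2.31 ± 0.53), TIMM8B (1.78 ± 0.46) and TIMM13 (2.05 ± 0.55), the last a small TIM chaperone. Each of these 3 calls was lost without OMM labelled replicate 2 or ERM unlabelled replicate 2, so the difference rests on single libraries. The TOMM20 difference between OMM and ERM was -0.74 (95% interval -1.16 to -0.32) and was not called (adjusted p = 0.0703).

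In the nucleus the members that were called fell. NLS lowered 3 members (2.42% of all genes tested were called lower), among them TOMM22, the central receptor of the TOM complex, with 107 and 87.6 CPM labelled and 237 and 266 unlabelled (-1.37 ± 0.24, adjusted p = 2.51e-04). TIMM8B followed with 38.0 and 30.5 against 95.2 and 80.7 CPM (-1.36 ± 0.33), and TOMM20 with 597 and 599 against 887 and 948 CPM (-0.62 ± 0.15, adjusted p = 0.0101). The labelled libraries were below the unlabelled ones in all 3 genes; without NLS labelled replicate 2 TOMM22 alone was called, while the fit of the 4 NLS libraries alone called 12 members (10 lower and 2 higher) and the fit without the filter 5. PAM16, an import motor subunit, pointed the other way without being called: 49.9 and 45.3 CPM labelled and 10.1 and 14.6 unlabelled (adjusted p = 0.293).

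At the nucleolus (NIK) 3 members fell (3.96% of all genes tested did). TIMM17B stood at 6.86 and 21.2 CPM labelled and 89.3 and 102 unlabelled (-2.78 ± 0.40, adjusted p = 3.11e-05), while TIMM17A stood at 186 to 199 CPM labelled against 131 to 146 and was not called (0.48 ± 0.22). TOMM22 (91.7 and 70.8 against 192 and 153 CPM) and TIMM8B (12.0 and 29 against 58.3 and 44.2 CPM) also fell, by 1.09 and 1.32 on the log2 scale. TOMM20 stood at 755 and 693 against 858 and 877 CPM and was not called. Both NIK labelled libraries are of low complexity (6.06% and 2.94%), and no member was called in a fit of the 4 NIK libraries alone.

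At the lamina (LMA) 1 member rose and 8 fell (3.67% and 4.0% of all genes tested). TIMM22, the channel for carrier proteins, stood at 21.4 and 21.5 CPM labelled and 71.7 and 84.7 unlabelled (-1.87 ± 0.33, adjusted p = 1.76e-04). TOMM40, the pore of the TOM complex, stood at 98.9 and 99.9 against 198 and 201 CPM (-1.01 ± 0.23), TOMM22 at 101 and 79.3 against 201 and 152 CPM (-0.97 ± 0.23) and TIMM8B at 32.8 and 30.6 against 82.0 and 75.7 CPM (-1.32 ± 0.33). All of these labelled libraries lay below the unlabelled ones, in genes picked by their adjusted p. SAMM50, TIMM23, TIMM17B and GRPEL1 fell too, and GRPEL2, a nucleotide exchange factor of the motor and the paralog of GRPEL1, rose (1.21 ± 0.37). TOMM20 stood at 626 and 614 against 846 and 698 CPM and was not called. Without LMA labelled replicate 1, labelled replicate 2 or unlabelled replicate 1, 2 members were called, and in a fit of the 4 LMA libraries alone 14.

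No member was called at NucPore (0.0% of all genes tested), KDEL (0.0%) or MITO (1.05%) with edgeR. At NucPore and KDEL no gene of any kind was called, so the lack of calls there is not particular to the members. An unadjusted p under 0.05 was reached by 1, 0 and 1 members, and DESeq2 called 0 in each. TOMM20 stood at 644 and 499 CPM labelled against 670 and 630 unlabelled at NucPore, at 561 and 559 against 625 and 642 at KDEL, and at 627 and 673 against 748 and 699 at MITO. Total RNA of MITO likewise gave 0 calls with edgeR (0.63% of all genes tested), 5 at an unadjusted p under 0.05 and 0 with DESeq2, with member fold changes from -1.57 to 1.82 on the log2 scale.

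**Figure D2:**
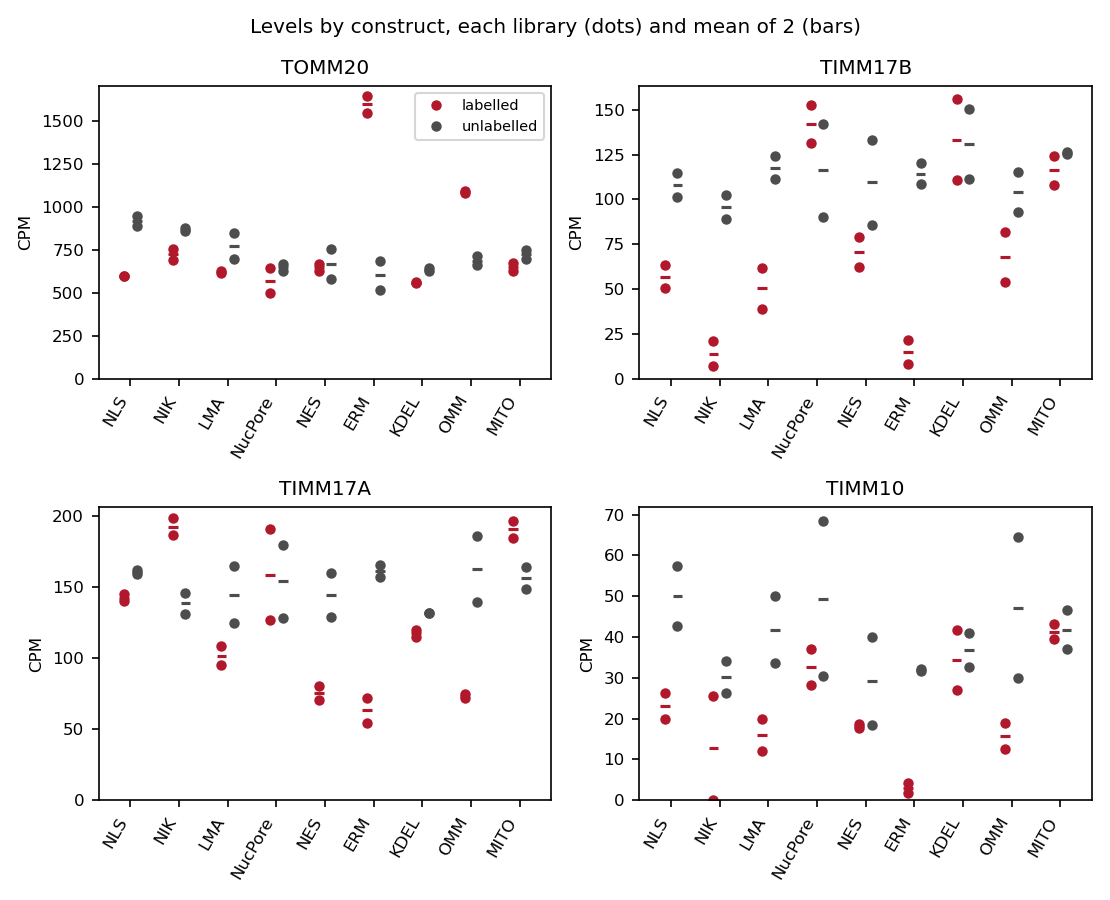
Levels in CPM (vertical axes, from 0) of TOMM20, TIMM17B, TIMM17A and TIMM10 in each library (dots) of the 9 constructs (horizontal axes), labelled in red and unlabelled in grey, with bars at the mean of 2. TOMM20 stands highest in ERM labelled libraries at 1647 and 1548 CPM and next at OMM with 1091 and 1080, and TIMM17B is lowest in those of NIK and ERM.

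In cycloheximide some import transcripts were enriched at the mitochondrial surface and others depleted. At the OMM 7 members were higher in labelled than in unlabelled libraries and 5 were lower, where 12.4% of all genes tested were called higher and 5.35% lower. TIMM44 (chr19:7926718-7943920, minus strand, GRCh38) had 296 and 283 CPM labelled and 73.1 and 43.3 unlabelled, a 4.98-fold difference (2.32 ± 0.26 on the log2 scale, adjusted p = 3.55e-06). TOMM20 (chr1:235109336-235128936, minus strand) had 1689 and 1949 CPM labelled and 580 and 916 unlabelled (1.28 ± 0.17, adjusted p = 2.08e-05).

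TIMM44 and TOMM20 were the 2 members whose labelled OMM libraries in cycloheximide lay above all 22 other libraries of the drug table, where 9.16% of all genes tested did, so 2 of 30 is no larger a share. The other libraries ranged from 43.3 to 121 CPM for TIMM44 and from 533 to 916 CPM for TOMM20. In a fit of the 4 OMM cycloheximide libraries alone TIMM44 was the 1 member called.

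The other higher members depended on their controls. GFER, an oxidase of the disulfide relay, had 38.7 and 28.2 CPM labelled and 7.55 and 1.13 unlabelled (2.95 ± 0.59), but 18.0 to 38.0 CPM in the 10 other unlabelled libraries of the table. TOMM34, a cytosolic co-chaperone, had 101 and 93.3 CPM labelled and 45.9 and 55.7 unlabelled (0.94 ± 0.18), against 61.2 to 127 in the 10 others. TIMMDC1 had 116 and 114 CPM labelled and 77.0 and 36.1 unlabelled (1.02 ± 0.26), against 86.1 to 141 in the 10 others. For these 3 genes the unlabelled OMM libraries in cycloheximide lay below all 10 other unlabelled libraries and the labelled ones did not lie above them. TIMM21 and TOMM40L were the remaining higher members.

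With the unlabelled OMM libraries of puromycin and CCCP as controls instead, a choice made after seeing the data, 3 members were higher and 10 lower (10.9% and 6.16% of all genes tested). TIMM44 (1.51 ± 0.21, adjusted p = 2.1e-05) and TOMM20 (1.46 ± 0.14, adjusted p = 1.64e-07) kept their calls. TIMM10B was the other higher one. GFER (0.16), TIMMDC1 (0.12), TIMM21 (0.61), TOMM40L (0.58) and TOMM34 (-0.18, reversed) lost theirs. The part of low library complexity in those calls was not tested.

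The lower members at the OMM in cycloheximide were MTX1, an outer membrane partner of SAMM50, with 10.2 and 12.3 against 40.7 and 44.5 CPM (-1.92 ± 0.45, adjusted p = 0.00479), and TIMM17A, TOMM40, TIMM9 and TIMM10. The count of 12 became 6 without labelled replicate 1, 7 without labelled replicate 2, 19 without unlabelled replicate 1 and 8 without unlabelled replicate 2. By role, 2 of 6 TOM members rose and 1 fell, and 2 of 6 small TIM chaperones fell. Of all genes tested 12.4% were called higher and 5.35% lower in this comparison.

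Members with and without a presequence were counted apart. Of 5 with one (TIMM44, TIMM50, TIMM21, GRPEL1 and GRPEL2), 2 rose at the OMM in cycloheximide and 0 fell, with a median of 0.81. Of 25 without one, 5 rose and 5 fell, with a median of -0.37, beside 0.40 over all genes tested. Of all genes tested 12.4% rose and 5.35% fell. With the unlabelled libraries of puromycin and CCCP as controls, 1 of the 5 was called higher (TIMM44) and their median was 0.02, and of the 25 others 2 were higher and 10 lower, with a median of -0.69. With those controls 10.9% of all genes tested were higher and 6.16% lower. The difference between members with and without a presequence was not tested. All 5 with a presequence have at least 200 codons, so presequence and coding length were not separated. GRPEL1 and GRPEL2, whose first codons resemble those of TIMM44 in their basic residues, were not called.

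In the same drug the cytosol reporter gave another picture: 15 members fell at NES and none rose, where 7.77% of all genes tested fell. The members' median was -0.99 and that of all genes 0.23. TOMM5, a small TOM subunit, had 9.68 and 12.9 CPM labelled and 83.4 and 59.4 unlabelled (-2.66 ± 0.39, adjusted p = 7.37e-05). TOMM40 had 85.2 and 87.9 against 203 and 199 CPM (-1.22 ± 0.18), TIMM17B 28.2 and 23.0 against 64.9 and 135 CPM (-1.96 ± 0.31) and TIMM13 28.1 and 30.1 against 96.1 and 92.9 CPM (-1.70 ± 0.27). The groups did not overlap in any of these 4 genes, which were picked by their adjusted p.

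At NES in cycloheximide 0 of the 5 presequence members were called (median -0.09), and 15 of the 25 others (median -1.20), again without a test of the difference. Of all genes tested 7.77% fell there. All 5 presequence members have at least 200 codons. Members under 200 codons had a median of -1.50 and longer ones -0.72, so presequence and coding length overlap and were not separated. Both NES labelled libraries in cycloheximide lay below all 22 others for 9 members (MTX1, MTX2, PAM16, TIMM10, TIMM13, TIMM17B, TIMM8B, TOMM40 and TOMM5), where 4.25% of all genes tested did, and above all 22 for GRPEL2, where 2.86% did. GRPEL2 stood at 89.7 to 90.4 CPM there and at 30.0 to 84.5 in the others, and was not called.

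The direct comparison of both reporters in cycloheximide gave 11 members higher at the OMM than at NES and none lower, where 9.38% of all genes tested were higher. The members' median difference was 0.95 and that of all genes 0.27. TIMM44 led with 3.04 ± 0.36 (adjusted p = 9.91e-06), its NES libraries standing at 47.7 and 47.8 CPM labelled and 63.3 and 94.1 unlabelled. TIMMDC1 (2.14 ± 0.36), TIMM17B (2.15 ± 0.42) and TOMM22 (1.64 ± 0.33) followed. For TIMM17B the OMM libraries stood at 62.8 and 77.1 CPM labelled against 55.4 and 68.0 unlabelled, and were not called on their own, while at NES it fell.

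Without OMM labelled replicate 2 the 11 calls became 6, without either NES labelled library 7, and in a fit of the libraries of the comparison alone 1. With the other unlabelled OMM libraries as controls 4 were higher (6.3% of all genes tested): TIMM44 (2.23 ± 0.33, adjusted p = 1.08e-04), TOMM20 (1.15 ± 0.22), TIMMDC1 (1.23 ± 0.33) and TOMM22 (1.29 ± 0.31). The unlabelled NES libraries in cycloheximide were kept in that fit. For TIMMDC1 and SAMM50 both of these lay above all 22 other libraries with drugs, which 1.03% of all genes tested did. The part of these NES controls in the TIMMDC1 call was not tested.

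Among the 22 other import genes 8 rose and 3 fell at the OMM in cycloheximide, where 12.4% and 5.35% of all genes tested did. IMMT, the scaffold of cristae junctions, had 2140 and 1852 CPM labelled and 273 and 215 unlabelled (3.03 ± 0.16). AGK, a lipid kinase that is also part of the carrier translocase, rose by 2.86 ± 0.16, and HSPA9, the chaperone that drives the import motor, by 2.88 ± 0.17. Against NES, 10 of the 22 were higher and 1 was lower, where 9.38% and 4.16% of all genes tested were. PMPCA (4.65 ± 0.32), AGK (3.37 ± 0.22) and IMMT (3.17 ± 0.22) led. At the OMM in cycloheximide HSPA9 and its membrane anchor TIMM44 both rose, while the motor's members GRPEL1, GRPEL2, DNAJC19 and PAM16 were not called.

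Puromycin left no member called at the OMM with edgeR (2.13% of all genes tested were called), with 7 at an unadjusted p under 0.05 and 6 called by DESeq2. The count depended on the fit: from the 4 libraries of this comparison alone 13 members were lower, and with RLE scaling or without the filter 1 was. TIMM44 had 82.1 and 87.8 CPM labelled and 114 and 120 unlabelled there, the order of cycloheximide turned around. TOMM20 had 728 and 717 against 552 and 656 CPM (0.26 ± 0.17). The OMM effect in cycloheximide exceeded that in puromycin for 3 members, where 4.53% of all genes tested did: TIMM44 by 2.77 ± 0.36 (adjusted p = 6.38e-05), TOMM20 by 1.02 ± 0.24 (adjusted p = 0.0127) and TIMMDC1 by 1.30 ± 0.36 (adjusted p = 0.037). TIMM44 kept this call with each library left out in turn, and the other 2 lost it without either puromycin labelled library or puromycin unlabelled replicate 2. Without cycloheximide unlabelled replicate 1 the count was 10, and DESeq2 called 8.

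At NES in puromycin 10 members fell and none rose (4.58% of all genes tested fell). TIMM8B had 19 and 21.1 CPM labelled and 60.1 and 74.8 unlabelled (-1.75 ± 0.29, adjusted p = 5.29e-04), and TIMM17B 42.1 and 47.2 against 110 and 204 CPM (-1.81 ± 0.31). TIMM10 had 13.8 and 12.0 against 36.1 and 90.5 CPM (-2.30 ± 0.41), and TOMM22 68.5 and 64.6 against 155 and 174 CPM (-1.31 ± 0.24). The labelled libraries were the lower ones in all 4, which were picked by their adjusted p. The count fell to 4 without labelled replicate 2 and to 5 without unlabelled replicate 2, which is of low complexity, and DESeq2 called 16. The difference between OMM and NES in puromycin had 0 members called with edgeR (0.112% of all genes tested), 2 at an unadjusted p under 0.05 and 0 with DESeq2.

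CCCP removes the potential that draws presequences across the inner membrane. At the OMM 11 members fell and none rose (3.57% of all genes tested fell). TIMM17A had 62.6 and 78.5 CPM labelled and 188 and 164 unlabelled (-1.32 ± 0.23, adjusted p = 0.00104), and TIMM10 16.0 and 14.4 against 66.5 and 63.2 CPM (-2.09 ± 0.41). TIMM23, the TIM23 channel subunit, had 81.4 and 78.9 against 157 and 158 CPM (-0.97 ± 0.19), and TIMM8B 32.6 and 25.9 against 91.1 and 57.5 CPM (-1.34 ± 0.29). None of the 5 presequence members was among the 11. All 5 have at least 200 codons, and members of that length had a median of -0.18 beside -0.86 for shorter ones. Presequence and coding length were not separated. The count was 4 without labelled replicate 1 or unlabelled replicate 1 and 1 without labelled replicate 2, and 6 in a fit of these 4 libraries alone.

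At NES in CCCP 13 members fell (5.08% of all genes tested did) and none rose. TIMM8B had 21.6 and 21.6 CPM labelled and 91.4 and 74.5 unlabelled (-1.94 ± 0.29, adjusted p = 1.68e-04), TOMM22 72.8 and 72.7 against 242 and 186 CPM (-1.56 ± 0.24), TIMM10 13.1 and 10.2 against 59.8 and 49.2 CPM (-2.23 ± 0.41) and TIMM17B 47.2 and 39.3 against 143 and 124 CPM (-1.62 ± 0.30). The labelled libraries lay below the unlabelled ones in each of these genes, which were picked by their adjusted p. Without labelled replicate 1 or labelled replicate 2 there were 7 calls, and without unlabelled replicate 1 there were 8.

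No member was called for OMM against NES in CCCP with edgeR (0.00933% of all genes tested were), nor for OMM in CCCP against puromycin (0.0%). Both counts were 0 at an unadjusted p under 0.05 and with DESeq2. For TIMM44 the OMM minus NES difference in CCCP was 0.63 (95% interval -0.07 to 1.32). In unlabelled cells, TOMM34 (0.55 ± 0.11, adjusted p = 0.0113) and TIMM23 (0.58 ± 0.12, adjusted p = 0.0118) were higher in CCCP than in the other drugs, where 3.07% of all genes tested were higher. TOMM34 had 112 to 127 CPM in the 4 unlabelled CCCP libraries and 45.9 to 122 in the 8 others. TIMM23 had 129 to 158 and 64.9 to 141 CPM, so both overlapped. The low ends are the low-complexity unlabelled OMM libraries in cycloheximide, at 45.9 to 55.7 CPM for TOMM34 and 64.9 to 76.9 for TIMM23. For both genes these lay below all 10 other unlabelled libraries. The call of TIMM23 was lost without NES unlabelled replicate 1 of CCCP. Without unlabelled replicate 1 or 2 of OMM in cycloheximide the count was 6 or 4.

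TIMM44 thus had OMM log2 fold changes of 2.32 in cycloheximide, -0.46 in puromycin, -0.15 in CCCP and -0.41 in untreated cells, whose libraries are in another deposited table. TOMM20 had 1.28, 0.26, 0.12 and 0.66 in the same order. Untreated and drug-treated cells were not tested against each other.

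**Figure D3:**
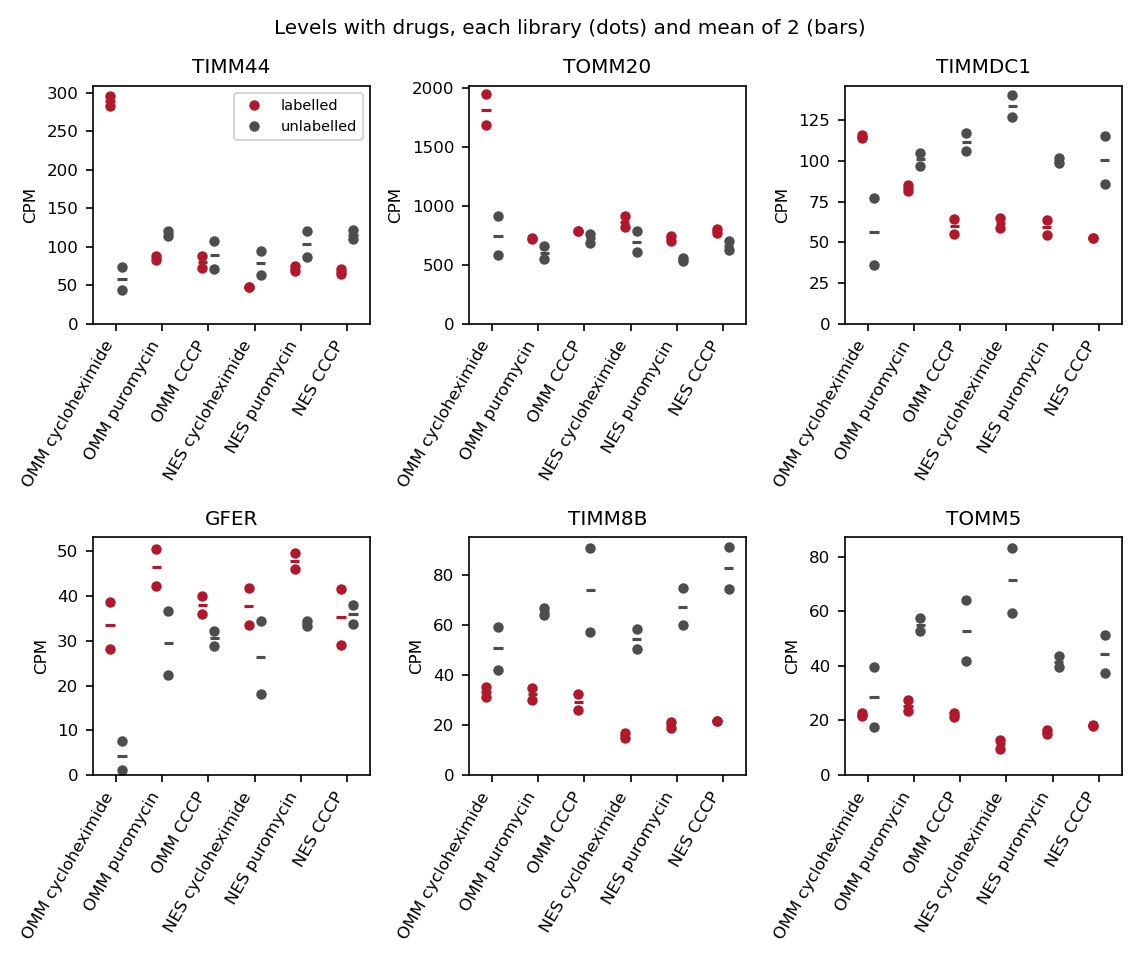
Levels in CPM (vertical axes, from 0) of TIMM44, TOMM20, TIMMDC1, GFER, TIMM8B and TOMM5 in each library (dots) of OMM and NES cells with 3 drugs (horizontal axes), labelled in red and unlabelled in grey, with bars at the mean of 2. TIMM44 at 296 and 283 CPM and TOMM20 at 1689 and 1949 CPM stand above all others in OMM labelled cells with cycloheximide, whereas GFER has its lowest values in the unlabelled libraries of that group.

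With nocodazole, each labelled OMM time was compared with the 4 unlabelled OMM libraries of 3 and 30 min. At 3 min 1 member was higher and 1 lower (11.0% and 1.88% of all genes tested), at 6 min 3 and 2 (12.2% and 3.0%), at 9 min 3 and 2 (11.0% and 2.53%), at 30 min 1 and 1 (10.2% and 2.09%) and at 2 h 3 and 2 (9.78% and 2.89%). TIMM17A was lower at all 5 times, by 0.96 ± 0.28 at 3 min to 1.26 ± 0.29 at 6 min and 0.87 ± 0.28 at 2 h on the log2 scale. Its unlabelled OMM libraries stood at 138 to 208 CPM, above the labelled ones of 3 min (89.5 and 89.6 CPM). All 4 of those unlabelled libraries are of low complexity, and with the unlabelled NES libraries as controls (chosen after seeing the data) TIMM17A was called at none of the 5 times, at -0.43, -0.74, -0.50, -0.40 and -0.35 from 3 min to 2 h (adjusted p from 0.209 to 0.631). At each time its call was also lost without at least 1 of the labelled libraries.

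TOMM20 was higher at the OMM at 6 min (1310 and 1518 CPM), 9 min (1314 and 1160 CPM) and 2 h (1229 and 1150 CPM) than in the unlabelled libraries, which had 1056, 685, 850 and 696 CPM. The log2 fold changes were 0.79 ± 0.15 (adjusted p = 0.0011), 0.59 ± 0.15 and 0.54 ± 0.15. At 3 min and 30 min they were 0.43 ± 0.15 and 0.46 ± 0.15 and not called (adjusted p = 0.0641 and 0.0513). All labelled libraries of the 3 called times lay above all 4 unlabelled ones. The call at 6 min was kept with each library left out in turn. That at 9 min was lost without labelled replicate 1 or unlabelled replicate 2 of 30 min, and that at 2 h without either labelled library or without unlabelled replicate 2 of 3 or of 30 min.

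DNAJC19, a motor subunit, was called higher at all 5 times, by 4.36 to 5.37 on the log2 scale, and PAM16 at 6 min, 9 min and 2 h. DNAJC19 had 0 and 0 CPM in unlabelled OMM libraries of 3 min, and 53.3 and 0.297 of 30 min. The 10 labelled OMM libraries ranged from 6.36 to 17.9 (median 12.6) and the 4 unlabelled NES libraries from 14.1 to 53 CPM. PAM16 had 0, 0.0401, 23.4 and 0.0495 CPM in the unlabelled OMM libraries and 4.54 to 24.4 in those of NES. The unlabelled OMM libraries therefore disagree among themselves for both genes, and with the unlabelled NES libraries as controls DNAJC19 had -1.15, -1.7, -0.96, -0.7 and -1.12 from 3 min to 2 h. With those controls 0, 1, 0, 0 and 1 members were called at the 5 times, TOMM20 at 6 min (0.68 ± 0.15, adjusted p = 0.00735) and TIMM17B, lower, at 2 h.

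Compared with NES, TOMM22 was the 1 member higher at the OMM at 3 min (1.61 ± 0.40, adjusted p = 0.03) and at 6 min (1.69 ± 0.40, adjusted p = 0.0215), where 2.05% and 1.91% of all genes tested were higher. It had 159 and 113 CPM in labelled OMM cells at 3 min and 149 and 140 at 6 min, and in unlabelled ones 96.0, 147, 186 and 126. In labelled NES cells it had 67.9 and 74.9 CPM at 3 min and 68.0 and 74.8 at 6 min, below the unlabelled NES libraries of 158, 190, 182 and 374. The OMM groups overlapped and the NES groups did not. Both TOMM22 calls were lost in a fit of the libraries of the comparison alone. The call at 3 min was also lost without OMM labelled replicate 1, either NES labelled library, or replicate 2 of the unlabelled NES libraries of 3 or of 30 min, and the call at 6 min without any 1 of the 4 labelled libraries.

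At 9 min, 30 min and 2 h no member was called for OMM against NES with edgeR (1.19%, 1.1% and 0.989% of all genes tested), with 4, 5 and 4 at an unadjusted p under 0.05 and 1, 2 and 2 called by DESeq2. The difference between 2 h and 3 min had 0 members called with edgeR (0.0204% of all genes tested), 1 at an unadjusted p under 0.05 and 0 with DESeq2.

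**Figure D4:**
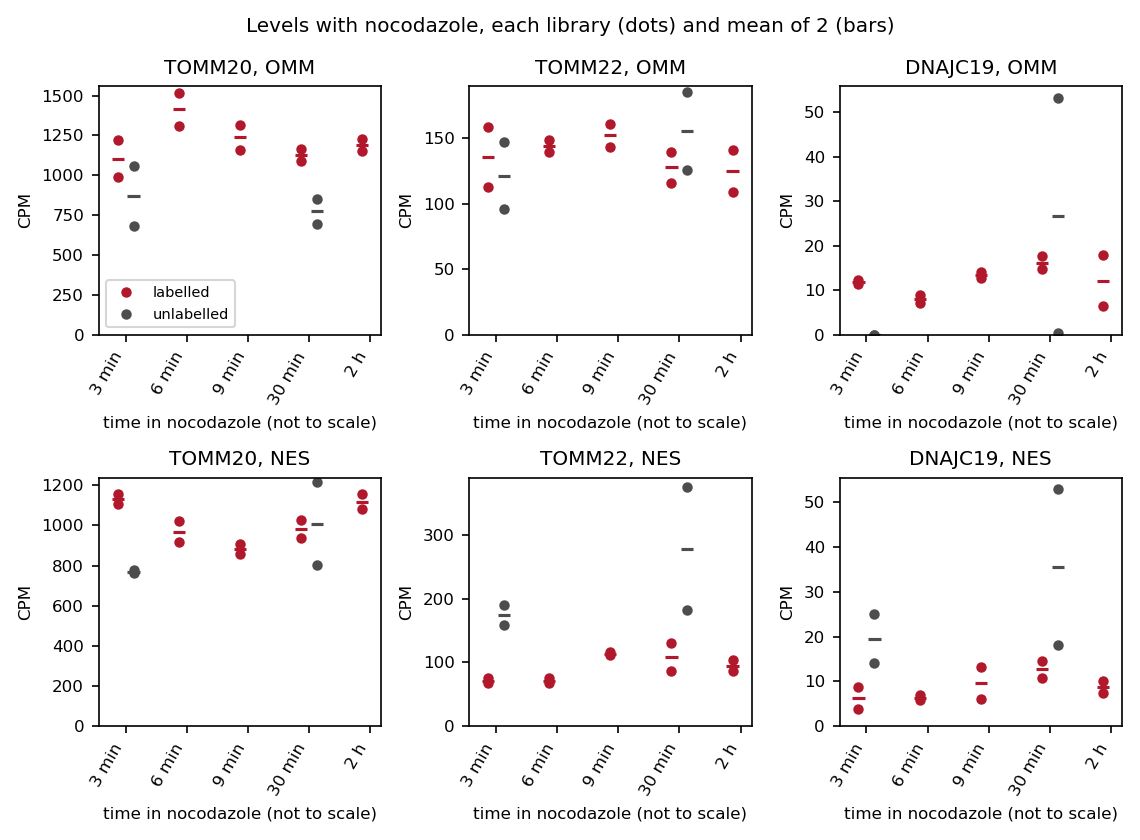
Levels in CPM (vertical axes, from 0) of TOMM20, TOMM22 and DNAJC19 in each library (dots) of OMM cells (top) and NES cells (bottom) over the time in nocodazole (horizontal axes, not to scale), labelled in red and unlabelled in grey, with bars at the mean of 2. DNAJC19 has 3 unlabelled OMM libraries at or near 0 and 1 at 53.3 CPM, and TOMM22 is lower in labelled than in unlabelled NES libraries.

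Most import transcripts were lower in the nuclear than in the cytosol fraction. The values are shares of each library, so they do not give where most copies of a transcript lie. Of the landmarks MALAT1 (4.52 ± 0.20), ALDH18A1 (1.27 ± 0.17) and SCD (0.80 ± 0.17) were higher in the nuclear fraction. MT-CO1 (-2.89 ± 0.19) was lower there. Of 30 members 22 were lower in the nuclear than in the cytosol fraction and 1 was higher, where 27.8% of all genes tested were lower and 34.2% higher. The sign was negative for 29 of 30, and the median was -0.97 beside 0.11 over all genes. TOMM22 had 76.2 and 63.5 CPM in the nuclear and 215 and 242 in the cytosol fraction (-1.71 ± 0.18, adjusted p = 9.2e-06). TIMM8B had 44.3 and 36.4 against 117 and 164 CPM (-1.80 ± 0.21), TIMM9 28.0 and 23.7 against 77.4 and 88.2 CPM (-1.68 ± 0.20) and TIMM10 34.4 and 28.3 against 86.9 and 110 CPM (-1.65 ± 0.20). No nuclear library reached a cytosol one in these 4 genes, which were picked by their adjusted p.

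All 6 small TIM chaperones were lower in the nuclear fraction (median -1.36), as was TIMM22 (-1.50 ± 0.19). Of all genes tested 27.8% were lower. TOMM20, TOMM40, TOMM40L, MTX1, TIMM21, TIMM44 and GFER were not called. TIMM44 had -0.26 (95% interval -0.60 to 0.09) and TOMM20 -0.38 (-0.71 to -0.05, adjusted p = 0.0629), so both changes were smaller in size than the members' median. PAM16 was the member higher in the nuclear fraction, with 14.2 and 16.9 against 8.30 and 9.18 CPM (0.83 ± 0.27, adjusted p = 0.0187). That call was lost without either nuclear library. Of the 22 other import genes 10 were lower and 3 higher, where 27.8% and 34.2% of all genes tested were. Among the lower import genes were HSPE1 (-1.87 ± 0.19), MTCH2 (-1.79 ± 0.20), an outer membrane insertase, and ROMO1 (-1.46 ± 0.21).

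**Figure D5:**
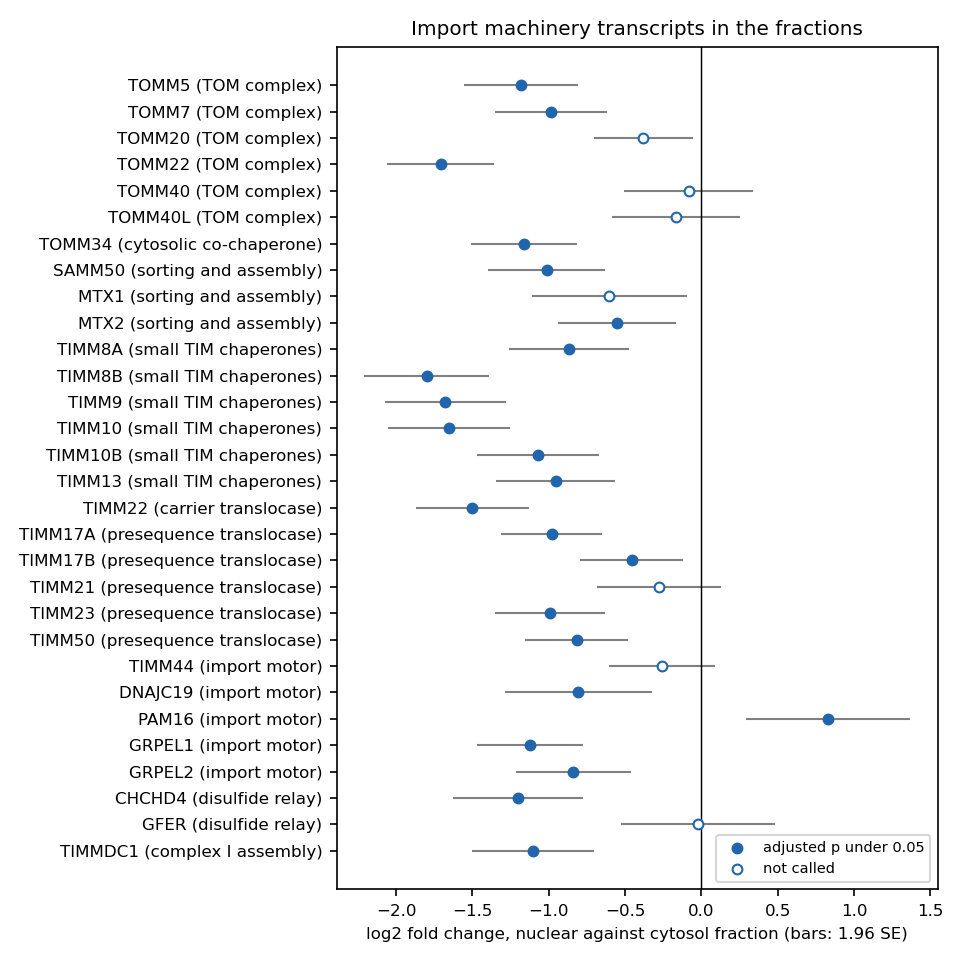
The log2 fold change of nuclear against cytosol fraction (horizontal axis) is drawn for each of the 30 tested members (vertical axis, by role), with bars of the 95% interval, filled at an adjusted p under 0.05. All but PAM16 lie left of 0, and TOMM22 and the small TIM chaperones TIMM8B, TIMM9 and TIMM10 lie farthest to the left.

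Coding length and labelling were related in some comparisons and not in others. Over the 30 members Spearman's rho between codons and log2 fold change ran from -0.355 to 0.504 over 37 comparisons, 29 positive and 8 negative. It was highest at the OMM in puromycin (0.504, beside 0.259 over 14769 coding genes) and 0.363 at NES in cycloheximide (0.263 over coding genes). In the fractions it was 0.409 (0.343 over 13591 coding genes) and at the ERM 0.262 (0.275 over 14835). It was near 0 at the untreated OMM (0.063) and for OMM against NES in cycloheximide (-0.013), and negative for OMM against NES (-0.355), KDEL (-0.351) and OMM against ERM (-0.315). At the OMM in cycloheximide it was 0.381, with a median of 0.74 for the 14 members of at least 200 codons and -0.50 for the 16 shorter ones. With the other unlabelled controls it was 0.317, with medians of -0.14 and -0.74. The points of each relation share their libraries, many comparisons share libraries with each other, and genes are not independent replicates.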

How the data were processed

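RNA was measured in 97 libraries of 49 groups of HEK293T cells. The deposited counts per gene are raw whole numbers made by the authors; the submitters' processing notes name Trimmomatic, STAR, HTSeq, SAMtools and bedtools with GRCh38 (hg38), without versions here. The authors also deposited log2 fold changes with p-values, for which those notes name DESeq2; these entered no test.

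Groups followed the labels. A technical repeat of 1 library was left out. One model of group means was fitted to each of the 5 count files in R 4.3.3 with edgeR 4.0.16 (TMM, default filter on low counts, trended dispersion, quasi-likelihood F test). Benjamini-Hochberg adjustment ran over all genes tested in a table, and an adjusted p under 0.05 was called. Standard errors are the log2 fold change over the root of F. CPM use TMM library sizes, so CPM compares libraries, not genes. The 95% intervals are normal ones around the log2 fold change. The fit was tested on data simulated for the fractions and for OMM in cycloheximide, with the same dispersion for every gene. These simulated data held no low-complexity libraries, so they cannot show how the fit handles such controls.

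Alternatives were RLE size factors, no filter, a replicate block, DESeq2 1.42.0, only the libraries of a comparison, leaving out single or low-complexity libraries, a minimum log2 change of 1, and other controls. Leave-one-out fits kept the dispersion trend and gene set of all libraries; a lone library was assumed to vary like the other groups. Library values are given for TOMM20 at the constructs and for up to 4 called members per comparison with the smallest adjusted p, and up to 3 other import genes are named. DNAJC19, PAM16, GRPEL2, TIMMDC1, MTX1, TOMM7, TIMM10 at ERM and TIMM17A at NIK were described outside that rule, after their values were seen. The members, lists and tests were chosen with earlier results of these data known. Precision is limited by the 2 libraries a group and, for members near 0, by the counts. Names of 21296 identifiers came from GENCODE 29 alone.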

Additional observations from a re-analysis of the deposited data

Results flagged for a closer look

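Differences between the effects of 2 groups, each tested in the same model, passed the threshold for the following members. The labelled against unlabelled change at the ERM differed from that at NES for TOMM20 (1.44), TIMM17B (-2.3) and TIMM50 (-1.16). The change at the OMM differed from that at the ERM for TIMM17B (2.31), TIMM8B (1.78) and TIMM13 (2.05). In cycloheximide the change at the OMM exceeded that at NES for TIMM44 (3.04), TIMMDC1 (2.14), TIMM17B (2.15), TOMM22 (1.64), TIMM23 (1.22), TOMM5 (2.29), TOMM20 (0.97), TIMM21 (1.75), TIMM13 (1.31), DNAJC19 (2.61) and GFER (2.43). The OMM change in cycloheximide exceeded that in puromycin for TIMM44 (2.77), TOMM20 (1.02) and TIMMDC1 (1.3). In nocodazole the change at the OMM exceeded that at NES for TOMM22 at 3 min (1.61) and 6 min (1.69), 2 calls that are lost when single labelled libraries are left out. All values are differences of log2 fold changes. Other calls listed here were also lost without single libraries. They were TIMM17B and TIMM50 at the ERM against NES, TIMM17B, TIMM8B and TIMM13 at the OMM against the ERM, and TOMM20 and TIMMDC1 for cycloheximide against puromycin. For OMM against NES in cycloheximide, only TIMM44, TOMM20, TIMMDC1 and TOMM22 kept their call with the other unlabelled OMM libraries as controls. GFER turned to -0.36 there. The unlabelled NES libraries were kept in that fit, and for TIMMDC1 both lay above all 22 other libraries with drugs.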

How the results depend on the processing

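Each count of called members was refitted under up to 8 alternatives. Without the filter on low counts NLS gave 5, NIK 5, NES 2, ERM against NES 6, OMM in puromycin 1, OMM against NES at 6 min 2 and at 9 min 1, and OMM at 9 min 3. From the libraries of each comparison alone NLS gave 12, NIK 0, LMA 14, NES 0, ERM 7, OMM 0, ERM against NES 1, OMM against ERM 0, OMM in cycloheximide 1, OMM against NES in cycloheximide 1 (other import genes 7), OMM in puromycin 13 and in CCCP 6, cycloheximide against puromycin 1, unlabelled CCCP 0, OMM at 3, 9 and 30 min and 2 h 0, at 6 min 1, and OMM against NES at 3 and 6 min 0. DESeq2 gave NIK 5, NES 5, ERM against NES 6, OMM against NES 1, OMM against ERM 5, OMM in puromycin 6, NES in puromycin 16, cycloheximide against puromycin 8, OMM from 3 min to 2 h 7, 11, 10, 7 and 13, and OMM against NES 5, 5, 1, 2 and 2. A minimum log2 change of 1 gave NES 0, unlabelled CCCP 0, OMM at 3 min 1, 30 min 1 and 2 h 3, the fractions 12, and other import genes 6 at ERM and 6 in the fractions. Without low-complexity libraries OMM gave 2, OMM against NES 1, OMM against ERM 5 and NES in puromycin 4. RLE scaling, which moved the median of all genes by at most 0.08, gave OMM in puromycin 1. Other unlabelled controls gave OMM against NES in cycloheximide 4 and OMM from 3 min to 2 h 0, 1, 0, 0 and 1, and turned TOMM34 (-0.18) at the OMM and GFER (-0.36) at OMM against NES in cycloheximide, and DNAJC19 in nocodazole (-1.15, -1.7, -0.96, -0.7 and -1.12). The cause was not tested.

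Leaving out single libraries gave ranges of 1 to 2 (NLS), 1 to 5 (NIK), 2 to 6 (LMA), 0 to 1 (NucPore), 0 to 2 (NES), 10 to 15 (ERM), 1 to 6 (OMM), 1 to 8 (ERM against NES), 0 to 1 (OMM against NES) and 0 to 8 (OMM against ERM). With drugs they were 6 to 19 (OMM cycloheximide), 12 to 16 (NES cycloheximide), 6 to 16 (OMM against NES), 4 to 9 (NES puromycin), 1 to 8 (OMM CCCP), 7 to 10 (NES CCCP), 1 to 10 (cycloheximide against puromycin) and 1 to 6 (unlabelled CCCP). With nocodazole, from 3 min to 2 h, they were 0 to 6, 1 to 8, 1 to 8, 1 to 6 and 1 to 9 (OMM) and 0 to 5, 0 to 4, 0 to 4, 0 to 3 and 0 to 4 (OMM against NES). MITO total RNA gave 0 to 2 and the fractions 17 to 23, and the other import genes 7 to 8 (ERM), 8 to 14 (OMM cycloheximide), 8 to 13 (OMM against NES) and 9 to 12 (fractions). The other 7 counts of 0 stayed at 0.

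With a replicate block, OMM at 2 h gave 3 members and other counts stayed within 1.5 times. Same-numbered libraries did not deviate together (r from -0.189 to 0.038). Noise of single libraries can also give values near 0, so the check cannot tell whether the numbers pair them. Of 161 called changes the block kept 155 called, RLE 159 and DESeq2 161; fits of a comparison's own libraries kept 63 of 138, and leaving out single libraries 551 of 794. Fits without the filter kept 135 of 161. Other unlabelled controls kept 11 of 42 called changes, weakened 24 and reversed 7. Counting depth limits members near 0, such as DNAJC19 and PAM16, and 2 libraries a group limit the rest.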
